A study of Mus musculus with 6 samples.

Results

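Clusters of SMAD1/5-bound regions were examined in mouse E14 embryonic stem cells (ESCs), a line in the naive pluripotent state, among the places where binding was called in both ESC media. Overlapping or touching peaks of the LIF+serum and LIF+BMP-4 lists were merged into regions, and a region holding at least 1 peak of each list was called shared. A shared region was a member of a cluster when another shared region lay on the same chromosome at an edge-to-edge gap of 10 kb or less. Of 18386 merged ESC regions, 5503 (29.9%) were shared. By this rule 1254 of them were members, and they formed 552 clusters. The other 4249 shared regions had no shared neighbour within 10 kb and are called isolated. Isolated regions did not all stand alone. Of them, 24.3% had a region called only in LIF+BMP-4 within 10 kb, and 12.3% had a region called only in LIF+serum. Membership was therefore chosen from the calls of the 2 ESC lists, and the counts and ranks that follow from those lists are descriptions.

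SMAD1/5 was mapped by ChIP-seq with an anti-Smad1 antibody, clone 913C1b, in 4 libraries, each the only one of its condition. ESCs were kept either in medium with LIF and fetal bovine serum or in basal medium with LIF and BMP-4 at 10 ng/ml. Epiblast stem cells derived from the E14 ESCs (ESD-EpiSCs, the primed state), kept with FGF2 and Activin A, were given BMP-4 at 10 ng/ml for 1.5 h or 24 h. All cells thus stem from 1 line, and no condition has a replicate, so p-values are not given and differences between conditions cannot be checked against replicates. The ESC lists held 9387 (LIF+serum) and 14696 (LIF+BMP-4) peaks, and the ESD-EpiSC lists 225 (1.5 h) and 133 (24 h). The depth behind them is unknown, so the absence of a call does not show the absence of binding. Peak lists carry no expression values, and the cell identities could not be checked against marker genes. Positions are mm9 and stand without gene names or sequence, because no mm9 annotation or genome was used here.

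BMP ligands activate receptor kinases that phosphorylate SMAD1 and SMAD5, which then enter the nucleus with SMAD4 and bind DNA, often beside other transcription factors. In mouse ESCs, BMP-4 acts together with LIF to sustain self-renewal. Transcription factors of ESCs are known to bind groups of neighbouring enhancers, so that several bound sites can lie close together along the DNA. The question here was how such neighbouring SMAD1/5 sites are arranged and whether they differ from shared sites without a shared neighbour.

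Most clusters were pairs. Of the 552 clusters, 443 had 2 members, 81 had 3, 19 had 4, 6 had 5, 2 had 6 and 1 had 7. Clusters of 3 or more made up 19.7% (109 of 552; exact Clopper-Pearson 95% binomial interval 16.5 to 23.3) and held 368 members. All 20 chromosomes with a shared region held at least 1 cluster. Intervals on shares cover counting error over regions or clusters of single libraries only, and neighbouring regions are not independent.

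Clusters were short and mostly empty between their members. The span from the first to the last base of a cluster had a median of 6.37 kb, from 1.33 kb to 30.3 kb, and members covered a median of 35.1% of it. Pairs had a median span of 5.37 kb, clusters of 3 a median of 11.2 kb and clusters of 4 a median of 14.9 kb. The 702 gaps between neighbouring members had a median of 3.22 kb, with quartiles of 1.18 and 6.62 kb, and 156 of them were 1 kb or less. Together the clusters spanned 4.03 Mb, of which members covered 1.32 Mb. The 10 kb limit did not fall in a trough of the distances. Just inside it, the region on chromosome 9 at 120588418 to 120589394 lay 9979 bp from its neighbour and ranked 3267 in the LIF+serum list and 3046 in the LIF+BMP-4 list. Just outside it, the region on chromosome 15 at 99622720 to 99623492 lay 10053 bp from its neighbour and ranked 5543 and 7827.

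**Figure D1:**
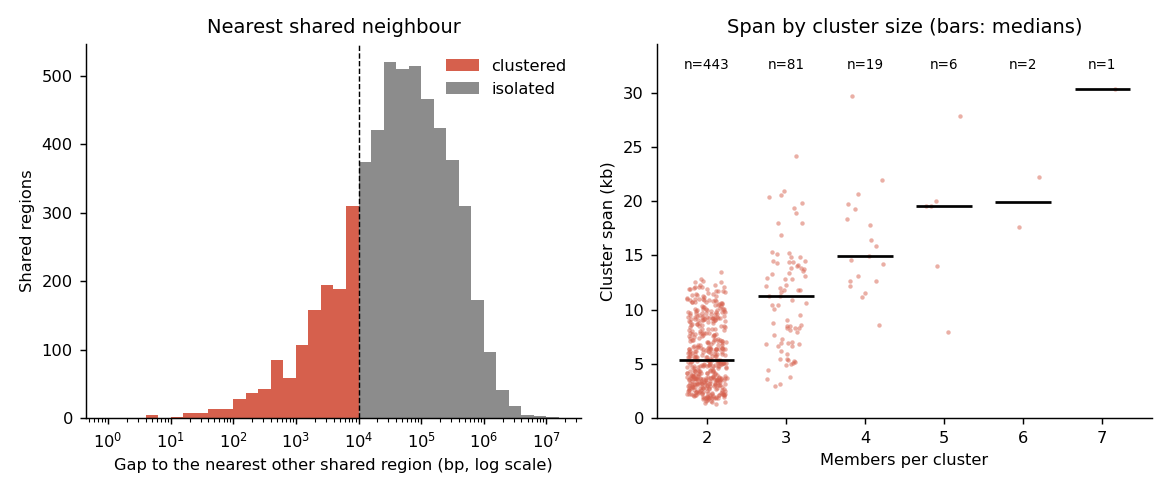
Left, number of shared regions by the gap to their nearest shared neighbour (bp, log scale), with the 10 kb limit as a dashed line; clustered regions are red and isolated ones grey. Right, span of each of the 552 clusters (kb) by number of members, with medians as bars; pairs have a median span of 5.37 kb and the cluster of 7 spans 30.3 kb.

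The largest cluster, with 7 members, lay on chromosome 6 at 136414198 to 136444519. Its strongest member by far was the fifth in map order, at 136430788 to 136431780, which ranked 20 in the LIF+serum list (authors' score 580.41) and 42 in the LIF+BMP-4 list (721.97). The other members ranked between 651 and 5315 in the LIF+serum list and between 3483 and 11833 in the LIF+BMP-4 list. One strong site was thus flanked on both sides by weaker ones. The third member, at 136419252 to 136420669, ranked 651 in the LIF+serum list but 8943 in the LIF+BMP-4 list. The second member, at 136416949 to 136417588, was the only one with an ESD-EpiSC peak, a 24 h peak of rank 66.

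The clusters with 6 members had no single dominant site. On chromosome 4 at 57843965 to 57866221, the strongest LIF+serum member was the first, at 57843965 to 57846016 (rank 124), and the strongest LIF+BMP-4 member was the fifth, at 57859240 to 57860578 (rank 185). On chromosome 16 at 64871470 to 64889134, the first 4 members followed each other at gaps of 529 to 884 bp and all ranked high. Their LIF+serum ranks were 315, 1182, 1349 and 1236, and their LIF+BMP-4 ranks were 747, 506, 841 and 419. The remaining members of the chromosome 16 cluster lay 7201 bp further on and ranked lower, at 1546 and 1888 in the LIF+serum list and 4927 and 3016 in the LIF+BMP-4 list. No ESD-EpiSC peak fell in either cluster.

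The 6 clusters of 5 members differed widely in strength. The most compact lay on chromosome 10 at 95342059 to 95349992, where members covered 63.1% of 7934 bp and the closest neighbours were 17 bp apart. The member at 95345978 to 95346976 ranked 468 in the LIF+serum list and 533 in the LIF+BMP-4 list, while the others ranked no higher than 2910 and 5155. On chromosome 8 at 28344630 to 28372467, the second member ranked 366 and 121, and the fifth ranked 8378 and 10132. On chromosome 7 at 34949552 to 34969106, no member ranked above 3468 in the LIF+serum list or 2140 in the LIF+BMP-4 list, and the second member ranked 9202 of 9387 in the LIF+serum list. On chromosome 8 at 93375369 to 93394924, the first member ranked 594 in the LIF+serum list and 9421 in the LIF+BMP-4 list. The clusters on chromosome 2 at 72848472 to 72862484 and on chromosome 6 at 37807093 to 37827153 were each led by 1 member in both lists, with ranks of 197 and 1090 and of 878 and 409.

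**Figure D2:**
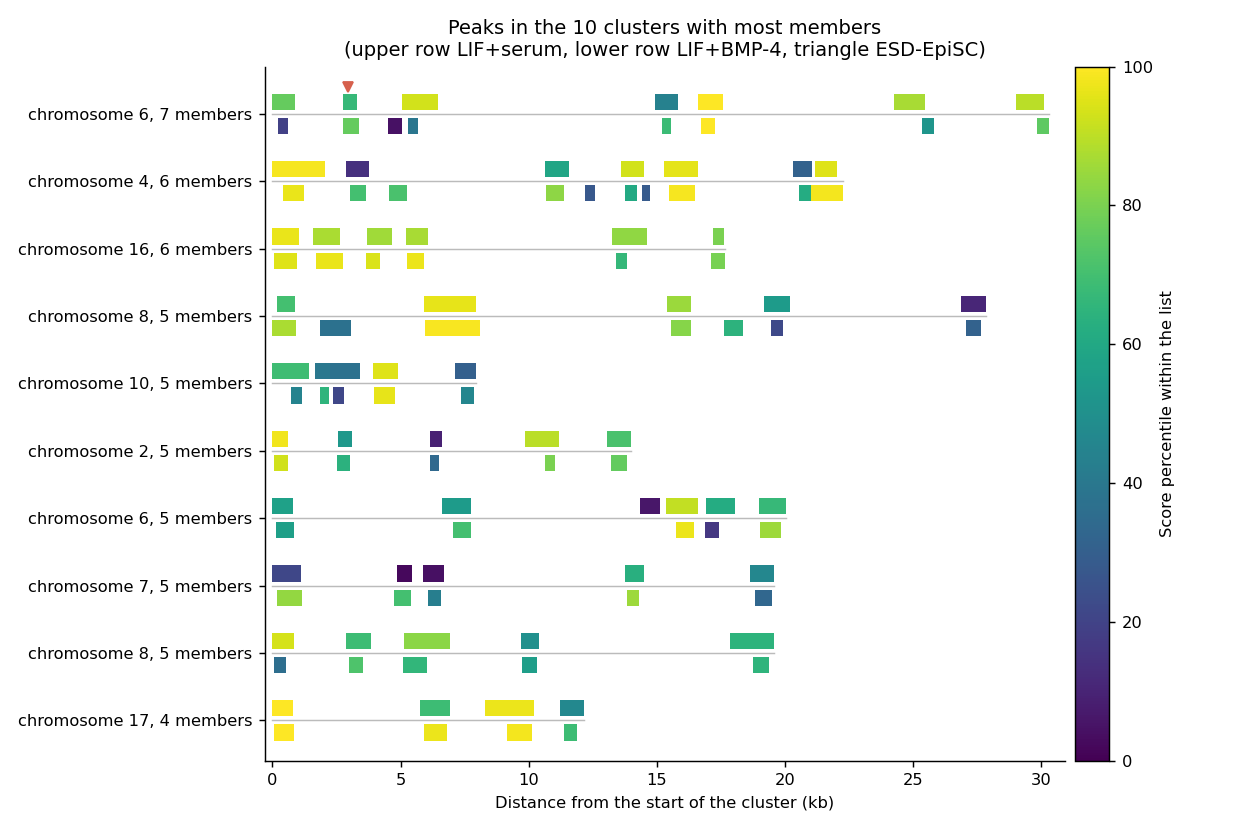
Peaks in the 10 clusters with most members, by distance from the start of the cluster (kb); each cluster has LIF+serum peaks above the line and LIF+BMP-4 peaks below it, coloured by score percentile within their own list, and triangles mark ESD-EpiSC peaks. Strong members (yellow) stand beside weak ones (blue) in most clusters, and 1 triangle is seen, in the cluster of 7.

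Some of the strongest sites of both lists had a shared neighbour close by. The highest peak of both lists belonged to a pair on chromosome 11 at 115296909 to 115303463. Its partner, 4570 bp away, ranked only 8013 in the LIF+serum list and 8971 in the LIF+BMP-4 list. The region of rank 3 in both lists, on chromosome 8 at 24013030 to 24014258, had a partner 196 bp away that ranked 6060 and 14557. In both pairs a leading site therefore stood beside a call near the lower end of at least 1 list. By contrast, the 4 members on chromosome 17 at 6943318 to 6955458 held ranks of 16, 2954, 280 and 4993 in the LIF+serum list and 10, 427, 251 and 4631 in the LIF+BMP-4 list. The 4 members on chromosome 4 at 54999480 to 55018797 ranked 5724, 353, 10 and 254 in the LIF+serum list and 2838, 444, 22 and 721 in the LIF+BMP-4 list. In the top 20% of both lists stood 2 of the members on chromosome 17 and 3 of those on chromosome 4.

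Pairs led by a high-ranking site were found on chromosome 2 at 20508932 to 20515419 (leading ranks 17 and 41), chromosome 6 at 91650438 to 91661156 (25 and 78) and chromosome 7 at 13893763 to 13897326 (50 and 40). In the pair on chromosome 8 at 13979483 to 13989287, the leading region ranked 6 and 21 and was 4841 bp wide, since it joined 2 LIF+serum peaks with 3 LIF+BMP-4 peaks. The cluster on chromosome X at 166407545 to 166431734 had the widest members of the named clusters. Its 3 members covered 96.0% of 24190 bp, and the first and last were 10978 and 10895 bp wide, against a median of 949.5 bp over all members. They ranked 41, 46 and 152 in the LIF+serum list and 47, 55 and 2 in the LIF+BMP-4 list. Whether this stretch holds repeated sequence was not tested.

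Clustered regions ranked only slightly higher than isolated ones. For each region the best peak of each list was taken, and its percentile is the share of that list's peaks with a score at or below its own. In the LIF+serum list the median percentile was 65.1 (quartiles 41.2 and 84.8) for clustered and 62.5 (35.4 and 83.3) for isolated regions. In the LIF+BMP-4 list the medians were 76.2 (52.2 and 90.0) and 72.6 (45.5 and 88.9). A clustered region outranked an isolated one with probability 0.52 in the LIF+serum list and 0.53 in the LIF+BMP-4 list, where 0.5 means no difference. In both lists the difference was larger at the lower quartile than at the upper one.

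The upper end of the lists showed little difference. Among members, 400 (31.9%, 29.3 to 34.6) were in the top 20% of LIF+serum peaks, against 29.6% (28.2 to 31.0) of isolated regions. Over all regions with a LIF+serum peak the share was 20.0%. For LIF+BMP-4 the shares were 544 members (43.4%, 40.6 to 46.2) and 40.3% (38.8 to 41.8) of isolated regions, with 20.2% over all regions with a LIF+BMP-4 peak. The observed direction of these differences depended on the peaks accepted. With only scores of at least 100, members' shares were lower than those of isolated regions. They were 24.0% against 28.6% for LIF+serum and 42.0% against 44.0% for LIF+BMP-4. Only 100 members were left under that setting. The exact intervals on their shares contained the isolated shares in both lists, so no reversal is shown. With ESC lists of equal length, the LIF+BMP-4 shares were 34.7% for both. The excess over these backgrounds was common to clustered and isolated regions, both of which had to be called in each list. Its cause was not tested. In the lowest 20% of the lists stood 11.3% (9.62 to 13.2) of members and 13.8% (12.8 to 14.9) of isolated regions for LIF+serum, and 6.30% (5.02 to 7.79) and 9.20% (8.35 to 10.1) for LIF+BMP-4. The LIF+BMP-4 intervals did not overlap there, but members were chosen from the same lists and neighbouring regions are not independent. The lowest 20% was not examined under the other settings, so no difference is concluded from these intervals. Among the 1000 highest LIF+serum peaks, 229 of 948 shared regions were members (24.2%, 21.5 to 27.0), and among the 1000 highest LIF+BMP-4 peaks 221 of 931 (23.7%, 21.0 to 26.6), close to the 22.8% of all shared regions. At the top of each list, members were thus about as frequent as among shared regions in general.

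**Figure D3:**
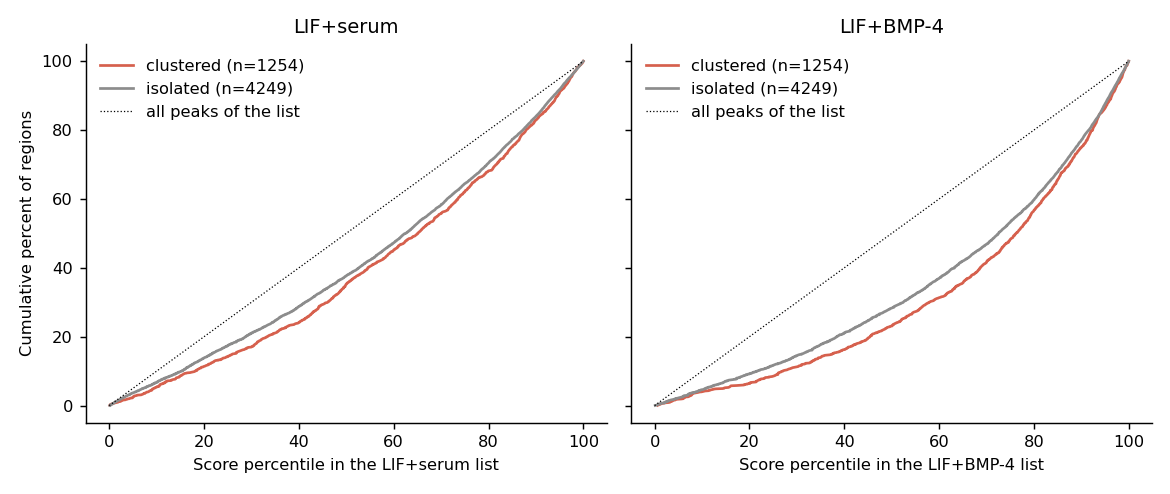
Cumulative percent of shared regions by score percentile in the LIF+serum list (left) and the LIF+BMP-4 list (right), for clustered (red) and isolated (grey) regions; the dotted diagonal is the whole list. The red curves run slightly below the grey ones, with medians of 65.1 against 62.5 and of 76.2 against 72.6.

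Cluster size did not order the regions by rank. The median LIF+serum percentile was 65.3 in pairs, 63.9 in clusters of 3, 59.4 in clusters of 4 and 70.0 over the 49 regions in clusters of 5 to 7. In the LIF+BMP-4 list the medians were 76.6, 75.9, 76.3 and 70.2. The largest clusters thus stood above the pairs in one list and below them in the other.

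Members were wider than isolated regions, and their peaks were less exactly aligned between media. The median region width was 949.5 bp for members and 881 bp for isolated regions. The best peaks themselves were wider too, at 909 against 859 bp in the LIF+serum list and 593 against 557 bp in the LIF+BMP-4 list. Midpoints of the best peaks of both lists lay within 200 bp of each other in 82.5% of members and 89.4% of isolated regions. More than 1 LIF+BMP-4 peak was joined in 63 members (5.02%, 3.88 to 6.38) and 107 isolated regions (2.52%, 2.07 to 3.04). No such share was taken over all ESC regions. Members were chosen for nearby calls in these same lists, so widths, offsets and joined peaks are descriptions. How much of the differences follows from the rule was not tested.

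Within a cluster, strength was uneven, as it also was between neighbouring shared regions further apart. The strongest member of a cluster had a median percentile of 84.1 in the LIF+serum list and the weakest 42.2, with a median spread of 33.6 points. In the LIF+BMP-4 list the corresponding values were 88.7, 56.0 and 24.1 points. A strongest and a weakest member differ by construction. The stronger and weaker of neighbouring shared regions had median LIF+serum percentiles of 82.5 and 44.1 within 10 kb, and 80.1 and 41.2 beyond. For LIF+BMP-4 the medians were 88.0 and 57.8 within 10 kb, and 86.6 and 52.4 beyond. All members stood in the top 20% of the list in 43 clusters for LIF+serum and 101 for LIF+BMP-4, whereas no member did in 236 and 168. Many clusters thus had all their members below the top 20% of a list. Of all members, only 31.9% (LIF+serum) and 43.4% (LIF+BMP-4) stood in it.

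Neighbours within 10 kb had a smaller median percentile difference than those beyond in the LIF+BMP-4 list. For LIF+serum their median difference was slightly larger. In the LIF+BMP-4 list the median difference between neighbours was 18.1 percentile points at gaps up to 1 kb (156 pairs), 20.4 points over all gaps up to 10 kb (702 pairs) and 25.4 points beyond 10 kb (4781 pairs). In the LIF+serum list it was 29.3, 29.2 and 27.8 points. The LIF+BMP-4 difference did not rise evenly with the gap. It was 19.7 points at 1 to 2 kb, 23.0 at 2 to 5 kb, 20.7 at 5 to 10 kb and 23.1 at 10 to 20 kb. These medians have no interval and were not taken under the other settings, so no effect of nearness is concluded. Both neighbours were in the top 20% of LIF+BMP-4 peaks in 20.4% (17.4 to 23.5) of pairs within 10 kb and 16.5% (15.5 to 17.6) of those beyond. For LIF+serum the shares were 9.83% (7.73 to 12.3) and 9.45% (8.64 to 10.3). The LIF+BMP-4 intervals overlapped narrowly, and consecutive pairs share a region, so the intervals are too short.

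The order of strength within a cluster often differed between media. The same member ranked highest in both lists in 354 of 552 clusters (64.1%, 60.0 to 68.1). It did so in 297 of 443 pairs (67.0%, 62.4 to 71.4) and in 57 of 109 clusters of 3 or more (52.3%, 42.5 to 61.9). A match by chance is rarer the more members a cluster has, so these shares cannot be compared between sizes. Of neighbouring shared regions within 10 kb, 65.7% (62.0 to 69.2) stood in the same order in both lists, against 66.2% (64.8 to 67.5) of those further apart and 66.1% of all neighbouring shared regions. Nearness therefore went with no visible change in how well the order held. The labels list 1 ESC input library, and a control used for both lists would link their scores at any one place, near or far, so these shares are descriptions.

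**Figure D4:**
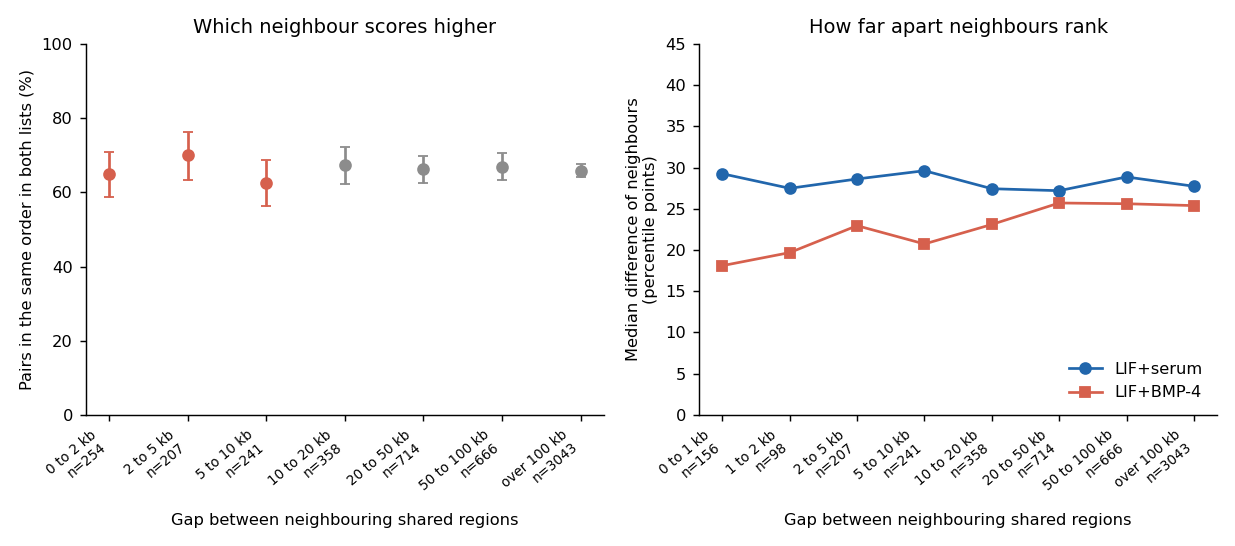
Neighbouring shared regions by the gap between them. Left, percent of pairs whose stronger region is the same in both lists, with exact 95% binomial intervals (red, within the 10 kb limit; grey, beyond it), at 65.7% within 10 kb and 66.2% beyond. Right, median difference in score percentile between neighbours, which in the LIF+BMP-4 list is 18.1 points at gaps up to 1 kb and 25.4 beyond 10 kb.

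The stretches in and around clusters were also richer in regions called in 1 medium only. Within 10 kb of members, outside the members themselves, there were 27.0 LIF+BMP-4-only regions per Mb (369 regions in 13.7 Mb) and 11.6 LIF+serum-only regions per Mb (159 regions). Within 10 kb of isolated regions there were 15.4 and 6.73 per Mb, in 83.6 Mb. Both kinds of single-medium region were therefore denser in and around clusters. The windows include the spaces between members of a cluster, and the density outside the cluster spans alone was not taken. Members were chosen for nearby calls in these same lists, and isolated regions for the lack of a shared neighbour. The densities are descriptions for that reason. No genome-wide density was taken for comparison, and how much of the difference follows from the rule was not tested. Of the regions within 10 kb of members, 100 LIF+BMP-4-only and 38 LIF+serum-only ones lay inside the cluster spans. LIF+BMP-4-only regions thus made up 72.5% (64.2 to 79.7) there, near their 70.0% of all single-medium regions. In 432 of 552 clusters (78.3%) the span held no single-medium region. Clustering was not particular to shared regions: 25.7% of the 9013 LIF+BMP-4-only regions and 12.1% of the 3870 LIF+serum-only regions had a neighbour of their own kind within 10 kb, against 22.8% of shared regions. These classes differ in number, which alone changes how often neighbours meet.

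Clusters were unevenly spread over chromosomes. On chromosome 8, singled out after its values were seen, 145 of 428 shared regions were members (33.9%, 29.4 to 38.6), the highest share of any chromosome, and formed 64 clusters. It also had the highest density of shared regions, at 3.34 per Mb between its first and last ESC region. Chromosome 11 was nearly as dense, at 3.22 per Mb, with 24.1% (19.9 to 28.7) of its shared regions in clusters. The lowest shares were found on chromosomes 18 (11.9%, 7.08 to 18.4), 13 (13.0%, 9.16 to 17.7) and 12 (13.6%, 9.23 to 19.0). Without chromosome 8, 21.9% of shared regions were members. Of the 552 clusters, 68 had another cluster within 50 kb, and the median distance to the nearest other cluster was 864 kb.

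**Figure D5:**
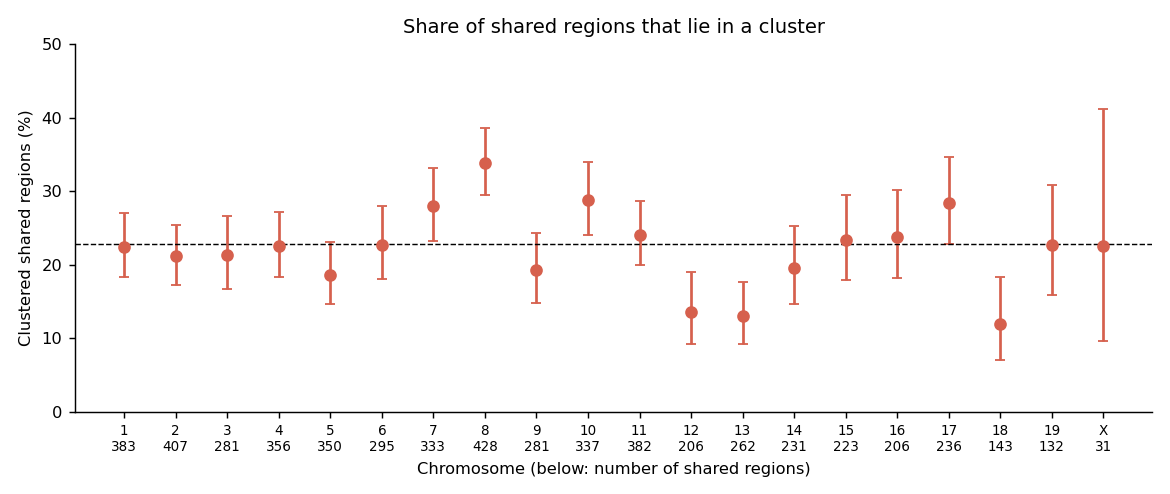
Percent of shared regions that are clustered, by chromosome, with exact 95% binomial intervals and the number of shared regions below each name; the dashed line is the 22.8% of the whole genome. Chromosome 8 stands highest at 33.9%, and chromosomes 12, 13 and 18 stand lowest.

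The ESD-EpiSC lists, which played no part in the choice of members, met few clusters. A 1.5 h peak lay in 7 of 1254 members (0.558%, 0.225 to 1.15) and in 36 of 4249 isolated regions (0.847%, 0.594 to 1.17), with 0.354% of all merged ESC regions. A 24 h peak lay in 5 members (0.399%, 0.130 to 0.928) and 14 isolated regions (0.329%, 0.180 to 0.552), with 0.185% of all merged ESC regions. The intervals for clustered and isolated regions overlapped at both times. With so few peaks, no difference between them was detectable.

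The 10 members with an ESD-EpiSC peak belonged to 10 different clusters, so in no cluster were 2 members met. Of these members, 6 were the strongest of their cluster in the LIF+serum list, 6 in the LIF+BMP-4 list, 5 in both and 3 in neither. Every cluster has 1 strongest member per list, so 552 of all 1254 members hold that place. Counts among 10 members therefore do not show a preference for the strongest ones. Peaks at both times were held by 2 members. The first, on chromosome 8 at 8608805 to 8610003, ranked 597 in the LIF+serum list and 2108 in the LIF+BMP-4 list, and held a 1.5 h peak of rank 94 and a 24 h peak of rank 9. Its partner 9395 bp away, of ranks 4557 and 6907, held none. The other, on chromosome 4 at 135695966 to 135696983, ranked 746 in the LIF+serum list but 12355 in the LIF+BMP-4 list. It held a 1.5 h peak of rank 24 and 24 h peaks of ranks 5 and 33, while its partner at 135702557 to 135703333 ranked 3998 and 3060 and held none. A further 1.5 h peak of rank 218, at 135700629 to 135700729, lay between the members of the chromosome 4 pair, in a LIF+serum-only region. All ESD-EpiSC peaks that lay in a member of these pairs were on the one that LIF+serum ranked higher, and on chromosome 4 this was not the one that LIF+BMP-4 ranked higher.

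The other 8 members with an ESD-EpiSC peak were met at 1 time only, 5 at 1.5 h and 3 at 24 h. The pair on chromosome 5 at 143888382 to 143891640 held the highest-ranking of them, of ranks 287 and 27, with a 1.5 h peak of rank 146. On chromosome 17 at 35635856 to 35647043, a 1.5 h peak of rank 144 lay in the third of 4 members, which ranked 5344 in the LIF+serum list and 1792 in the LIF+BMP-4 list. On chromosome 5 at 118884349 to 118895939, 1.5 h peaks of ranks 37 and 187 lay in the member that ranked lowest of 3 in both lists. The 1.5 h peaks on chromosome 2 (rank 119) and chromosome 8 (rank 124) lay in the stronger members of the pairs at 161164769 to 161167924 and 111250344 to 111254521. At 24 h, a peak of rank 31 lay in the stronger member of the pair on chromosome 2 at 52813636 to 52818693. A 24 h peak of rank 88 lay in the member ranked lowest of 3 in both lists on chromosome 5 at 120156315 to 120171208. In all, 2 peaks at 1.5 h lay inside a cluster span but in no member. The one at 135700629 to 135700729 on chromosome 4 met a LIF+serum-only region, and the other met no ESC region. These clusters were chosen for their ESD-EpiSC peaks, after the values were seen.

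The number of members depended on how deep into the lists peaks were accepted. With only peaks that scored at least 100 in every list, 100 regions were clustered, in 47 clusters, and the clustered share of shared regions was 7.03% in place of 22.8%. Of those 100 regions, 0 held an ESD-EpiSC peak at either time, against 8 (0.605%) of 1322 isolated regions at 1.5 h and 5 (0.378%) at 24 h. With shares this low, a count of 0 among 100 regions does not tell the sets apart. The same cut also shortened the ESD-EpiSC lists, whose median scores were 61.4 (1.5 h) and 59.49 (24 h).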

How the data were processed

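SMAD1/5 ChIP-seq peak lists of 4 immunoprecipitated libraries were used; the 2 input libraries were not analysed here. Bowtie 1.1.0, Picard and MACS 1.4.2 and the mm9 build are named, without roles, per the submitters' processing notes. Control, read filters and depth are unstated there. The authors deposited chromosome, start, end, name and a score per peak. The scale of the score is not stated, and ranks were taken inside 1 list at a time. The cut-off of at least 100 was the same in every list, although median scores differed between lists (70.45 for LIF+serum and 76.38 for LIF+BMP-4). Analyses used Python 3.11.15, numpy 2.4.6, pandas 2.3.3, scipy 1.17.1 and matplotlib 3.10.9. Overlap meant at least 1 bp, and positions are 1-based. Shares have exact 95% binomial intervals. The region code was tested on simulated data with real peak widths (2900 shared regions, with 592 clusters made and 592 recovered). Every simulated region held 1 peak of each list, on a single chromosome. Single-medium regions, regions joining several peaks of a list and gaps just over 10 kb were therefore not tested. Named clusters were the 10 with most members, the 10 with the highest mean percentile of any member and those with ESD-EpiSC peaks of both times; other clusters with an ESD-EpiSC peak were added afterwards. Gene lists, motifs and start sites were planned for the case of an mm9 annotation and not run; the gene and promoter tables at hand are GRCm38.p6. Members, lists and rules were chosen with earlier results of these data known. Alternatives were gaps of 5 and 20 kb, scores of at least 100, overlap of 50% of the shorter peak, ESC lists of equal length, lists without peaks over 5 kb, unplaced sequences or chromosome Y and, added after the data were seen, removal of chromosome 8.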

Additional observations from a re-analysis of the deposited data

How the results depend on the processing

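No paired analysis was possible because there is only 1 library per condition. A gap of 5 kb gave 15.5% of shared regions clustered and 14.5% of clusters with 3 or more members; a gap of 20 kb gave 33.1% and 24.5%. These follow from the definition. Scores of at least 100 gave 100 members, 47 clusters, 7.03% of shared regions clustered, 10.6% of clusters with 3 or more members and 55.3% led by the same member in both lists. Under that setting 24.0% of members were in the top 20% of LIF+serum, 42.0% of members and 44.0% of isolated regions were in the top 20% of LIF+BMP-4, and 0 of 100 members (0%, exact interval up to 3.62%) held an ESD-EpiSC peak at 1.5 h and 0 (0%) at 24 h. In LIF+serum isolated regions reached 28.6%, so in both lists the members' share was then below that of isolated regions. The members' exact intervals contained the isolated shares in both lists, so a change of order is not shown, and no cause was tested. ESC lists of equal length gave 20.9% of shared regions clustered. They put 35.4% of members and 34.0% of isolated regions in the top 20% of LIF+serum, and 34.7% of members and 34.7% of isolated regions in the top 20% of LIF+BMP-4. Of 78 values under the planned settings, 60 stayed within the limits (the 95% interval for shares, 1.5 times for counts) and 18 moved past them; without chromosome 8 all 13 stayed.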
